A study of Mus musculus with 6 samples.

Results

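The EGR and AP-1 immediate early factors, 10 genes picked by name (Egr1, Egr2, Egr3, Fos, Fosb, Fosl2, Jun, Junb, Jund and Ier2), were followed in cultured macrophages kept with dying cells. All 10 had a row in the deposited table of 38124 genes, and 8 of them were expressed highly enough to be tested. The cells were macrophages grown from the bone marrow of wild-type C57BL mice. Exposed macrophages were kept for 24 hr with thymocytes that dexamethasone, a synthetic glucocorticoid, had driven into apoptosis, the labels giving 1:40 as the ratio, and dying cells were taken off before RNA extraction. Untreated macrophages received no apoptotic cells. Each group had 3 libraries of poly(A) RNA, which the design text calls biological replicates. The labels used here do not state the age or sex of the mice, nor whether untreated cultures were washed alike.

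Immediate early genes are transcribed within minutes of a signal, without new protein synthesis, and their products switch on later genes. The ERK kinase pathway acts on serum response factor (SRF) and its partners at such genes, and CREB is a further activator. AP-1 is a pair of leucine zipper proteins, one of the JUN family with one of the FOS family or with another JUN protein. FOS proteins cannot pair with each other in this way. EGR proteins are zinc finger factors that bind GC-rich sites, and NAB proteins hold them back. In macrophages these factors take part in growth factor signalling through the CSF1 receptor and in inflammatory gene activation.

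Levels are given in RPKM, reads scaled to gene length and to the mapped reads of the library, so that genes can be compared per length. The mapped reads were 22782450 to 25933208 in exposed libraries and 19315132 to 23907256 in untreated libraries, as worked out from the steps in the values. Macrophage markers were abundant in both groups, led by Lyz2, with 2 of 8 higher and 6 lower in exposed libraries. Among them Fcgr1 was 7.09-fold lower (7.43 ± 0.401 RPKM in exposed and 52.7 ± 2.54 RPKM in untreated macrophages, SD, n = 3 each), Cd14 3.96-fold and Itgam 3.61-fold lower, and Mertk 4.33-fold higher, while Cd68 and Emr1 (Adgre1) moved by 1.11-fold or less. The 14 thymocyte markers summed to 2.21 to 2.61 RPKM in exposed libraries and 4.54 to 4.83 RPKM in untreated libraries, mostly Cd4, and Cd3e, Cd8b1, Rag2, Ptcra and Themis were at 0 in all 6. Neutrophil markers summed to 36.5 to 39.8 RPKM in exposed libraries and 6.28 to 6.87 RPKM in untreated libraries, mainly S100a8 and S100a9, with Ly6g at 0 in all 6. The 6 erythroid markers had 18 to 23 reads per exposed library and 0 to 1 per untreated library. Dendritic cell markers stayed at 0.0625 to 0.194 RPKM in exposed libraries and 0.0932 to 0.126 RPKM in untreated libraries, with Xcr1 at 0, and stromal markers at 1.51 to 1.82 RPKM in exposed libraries and 2.30 to 2.67 RPKM in untreated libraries. The part of these marker shifts in the results was not tested.

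Every one of the 10 factors stood lower in exposed than in untreated macrophages, with no overlap between the groups. The 10 were chosen with earlier results of these data known, so such counts describe them and give no support. The 8 that were tested all fell (limma on log2(RPKM + 1), adjusted p under 0.05), in a comparison in which 46.0% of the 10173 tested genes fell and 18.8% rose. With median-of-ratios scaling the split was 31.1% lower and 28.6% higher, the median change of all genes was -0.02 in place of -0.13 (log2), and the 8 stayed lower. Groups did not overlap in 49.1% of tested genes with the exposed group lower and in 20.4% with it higher. A fall alone was thus common, and the sizes differed much among the factors. Egr2 and Fos fell by more than 2 on the log2 scale, as 1.00% of tested genes did, and Junb also by more than 1, as 5.64% did. Egr1 and Egr2 reached the testing limit of 1 RPKM in untreated libraries only, so their passing this filter already required a difference. In these bulk samples fewer cells of a type and less RNA per cell cannot be told apart.

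**Figure D1:**
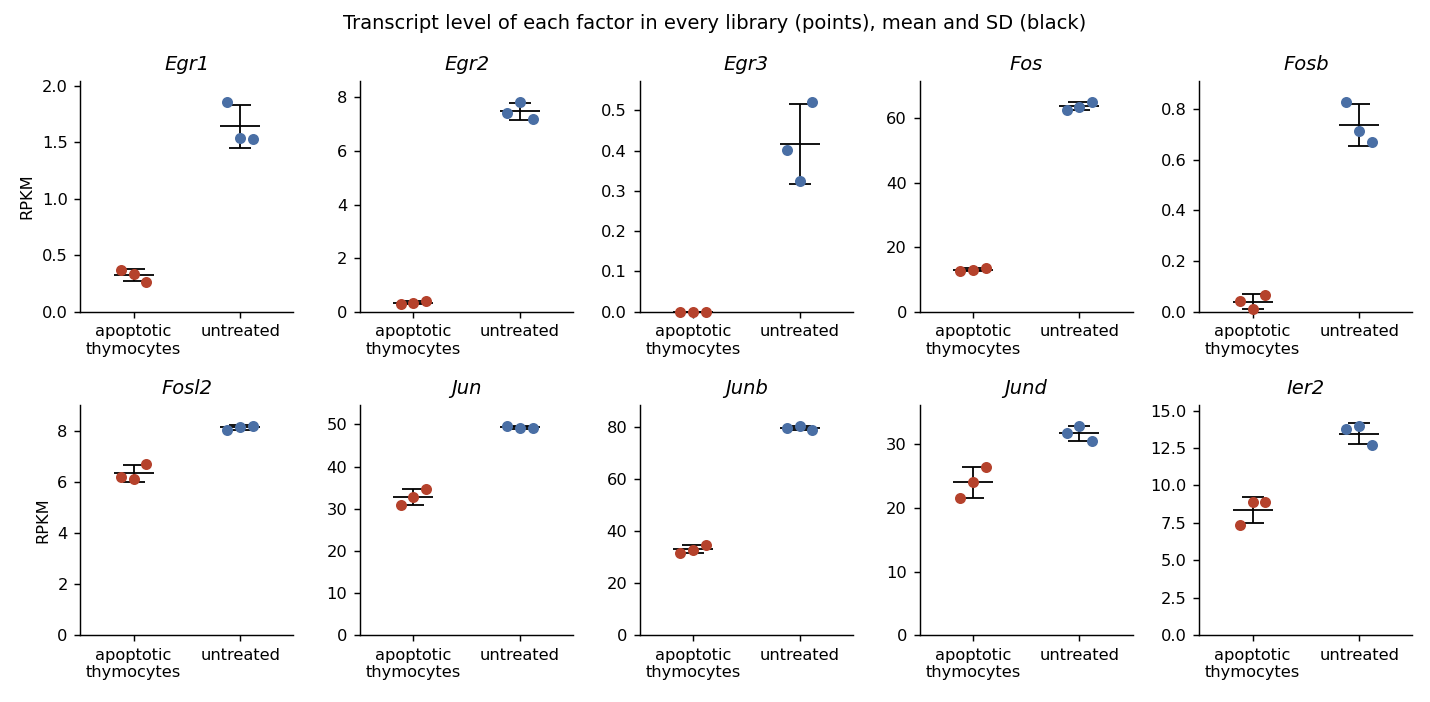
RPKM (linear axes from 0) of each of the 10 factors in the 3 exposed (apoptotic thymocytes, left) and 3 untreated (right) libraries, with group mean and SD in black. In each panel all exposed points lie below all untreated points, widely apart for Egr2 and Fos and close together for Jund.

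Egr2 fell furthest among the tested factors. It encodes an EGR family factor that acts in the differentiation and activation of macrophages and is known for its part in myelination. Its RPKM was 0.306, 0.323 and 0.387 in exposed libraries and 7.44, 7.83 and 7.18 in untreated libraries. The exposed libraries were all near 0.3, on 25 to 31 reads each, while the untreated ones held 488 to 636 reads. The means were 0.339 ± 0.0428 and 7.48 ± 0.326 RPKM (exposed and untreated, SD, n = 3 each), 22.1-fold lower with exposure. The log2 change on the RPKM + 1 scale was -2.66 (SE 0.0572, adjusted p = 1.08e-09, limma), and 0.344% of tested genes had a larger fall on that scale. That scale understates the change of low genes, and with a pseudocount of 0.1 the change was -4.11. Egr2 passed the filter of 1 RPKM through the untreated libraries alone, so its p adds no support to the difference.

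RefSeq lists several starts for Egr2 (GRCm38, chromosome 10, 67535475 to 67542188, plus strand), and the windows of all but the most upstream one hold letters that match the CArG box, the motif known to bind SRF. A pair of windows is shown because Egr2 was the only 1 of 7 factors with a listed promoter to hold such a box. Egr2 also had more windows searched than any other of the 7, and a match in any window counted. The factors were thus not searched evenly. Egr1, Egr3 and Ier2 had no listed window, and letters further upstream were not looked at. Each window runs from 250 bases before a start to 50 bases from it, 5′ to 3′, and capitals mark matches to the motifs named in the text.
Egr2, chr10:67537316-67537615, plus strand: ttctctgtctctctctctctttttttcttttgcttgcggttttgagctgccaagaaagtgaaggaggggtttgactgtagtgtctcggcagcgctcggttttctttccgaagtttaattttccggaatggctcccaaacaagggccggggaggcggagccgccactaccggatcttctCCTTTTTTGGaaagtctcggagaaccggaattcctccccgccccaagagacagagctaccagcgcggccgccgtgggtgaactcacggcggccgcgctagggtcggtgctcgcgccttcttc
Egr2, chr10:67537619-67537918, plus strand: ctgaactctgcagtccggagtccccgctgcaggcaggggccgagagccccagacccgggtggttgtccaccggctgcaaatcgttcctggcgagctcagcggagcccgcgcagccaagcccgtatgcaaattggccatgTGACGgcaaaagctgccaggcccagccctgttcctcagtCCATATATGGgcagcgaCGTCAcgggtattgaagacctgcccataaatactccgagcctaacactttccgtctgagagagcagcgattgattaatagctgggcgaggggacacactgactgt
The first window had CCTTTTTTGG and the second CCATATATGG, each at positions -72 to -63 from its start, which is position 0. A CArG box was found in 1.81% of 27025 genes in the RefSeq promoter table.

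Egr1, the best known growth-factor-induced EGR gene, was low in both groups (ENSMUSG00000038418, chromosome 18, 34859823 to 34864984). It stood at 0.370, 0.333 and 0.265 RPKM in exposed libraries and at 1.86, 1.54 and 1.53 RPKM in untreated libraries. The exposed values were all under 0.4 and the untreated ones all above 1.5. Egr1 thus passed the filter of 1 RPKM through the untreated libraries alone, and its p adds no support to the difference. The means were 0.323 ± 0.0531 RPKM in exposed and 1.64 ± 0.188 RPKM in untreated macrophages (SD, n = 3 each), 5.09-fold lower, with a log2 change of -0.997 (SE 0.0710, adjusted p = 2.30e-06, limma) that became -2.32 with limma voom on the recovered reads.

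Egr3, an EGR gene known from lymphocytes and muscle spindles, had 0 reads in all 3 exposed libraries (chromosome 14, 70077445 to 70080157). Untreated libraries had 11, 11 and 17 reads, or 0.402, 0.325 and 0.520 RPKM. A count of 0 allows up to 3 reads, or 0.0817 to 0.0930 RPKM in the exposed libraries, so Egr3 was at least 4.71-fold lower with this floor taken in each library. It was under the testing limit. With the limit at 0.1 RPKM, where 42.5% of 12778 genes fell, it entered the test through the untreated libraries alone, so that a difference was already required, and its adjusted p there was 0.000115 (limma). Egr4, the remaining gene of the family, had no more than a trace, at 0 in 5 libraries and 0.0484 RPKM in untreated replicate 1.

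Fos, the partner of JUN in the classical AP-1 pair, was the most abundant of the FOS and EGR genes in both groups (chromosome 12, 85473890 to 85477273, plus strand). Its RPKM was 12.7, 12.97 and 13.5 in exposed libraries and 62.7, 63.6 and 65.0 in untreated libraries. The libraries of each group were close together, with a gap of 49.2 RPKM between the groups. Fos fell 4.89-fold, to 13.05 ± 0.421 RPKM in exposed macrophages against 63.8 ± 1.18 RPKM in untreated macrophages (SD, n = 3 each; log2 change -2.21, SE 0.0426, adjusted p = 5.94e-10, limma). In relative terms Egr1 and Fos were thus close, while Fos remained the higher by far per length.

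Fosb, a FOS family gene known for its part in the brain, was lower still (chromosome 7, 19302721 to 19310045, minus strand). It had 4, 1 and 6 reads in exposed libraries, or 0.0411, 0.0117 and 0.0679 RPKM. Untreated libraries had 60, 64 and 58 reads, or 0.828, 0.714 and 0.670 RPKM. The summed reads per mapped read were 18.0-fold lower with exposure, with a 95% interval of 9.85 to 36.8 that covers counting error only. Fosb was under the testing limit in all 6 libraries. With the limit at 0.1 RPKM it too entered through the untreated libraries alone, with an adjusted p of 5.81e-06 (limma), so that this p adds no support to the difference.

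The promoters of Fos and Fosb are given because they are the FOS genes that dropped most, and that of Fosl2 because it moved least and yet shares a motif with Fosb.
Fos, chr12:85473640-85473939, plus strand: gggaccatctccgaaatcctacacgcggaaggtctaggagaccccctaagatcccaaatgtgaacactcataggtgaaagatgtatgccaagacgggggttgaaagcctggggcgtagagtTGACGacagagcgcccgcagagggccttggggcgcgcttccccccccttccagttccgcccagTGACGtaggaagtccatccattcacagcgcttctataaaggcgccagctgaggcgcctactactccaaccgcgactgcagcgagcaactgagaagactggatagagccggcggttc
Fosb, chr7:19309996-19310295, minus strand: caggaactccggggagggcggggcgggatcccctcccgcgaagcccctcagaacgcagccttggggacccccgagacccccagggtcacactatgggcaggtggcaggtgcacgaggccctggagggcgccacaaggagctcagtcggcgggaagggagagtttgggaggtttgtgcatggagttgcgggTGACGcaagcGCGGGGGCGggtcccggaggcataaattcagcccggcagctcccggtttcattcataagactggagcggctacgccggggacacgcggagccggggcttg
Fosl2, chr5:32136222-32136521, plus strand: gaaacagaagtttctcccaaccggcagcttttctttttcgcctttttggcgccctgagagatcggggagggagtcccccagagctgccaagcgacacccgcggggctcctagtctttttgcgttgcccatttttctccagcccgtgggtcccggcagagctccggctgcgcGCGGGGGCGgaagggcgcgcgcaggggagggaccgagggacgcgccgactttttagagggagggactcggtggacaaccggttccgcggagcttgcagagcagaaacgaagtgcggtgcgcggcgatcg
The EGR site GCGNGGGCG stood in the Fosb window at positions -50 to -42 and in the Fosl2 window at -79 to -71. It was found in 6.27% of genes in the table. The full cAMP response element TGACGTCA, to which CREB binds, and the AP-1 site TGANTCA were in none of the 7 factors with a listed promoter, against 2.03% and 8.97% of genes. The shorter core TGACG, looked for after the sequences were seen, was in 4 of the 7 (Egr2, Fos, Fosb and Junb) and in 23.0% of all genes. Both strands were searched, and TGACG is also part of the full element. A match describes the letters and shows no binding. No other forms of these motifs, and no letters outside these windows, were looked at.

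Fosl2, which encodes FRA2, a FOS protein without the strong activation domain of FOS, had the smallest fall of the 8 (chromosome 5, 32136472 to 32157831, plus strand). It had 6.18, 6.12 and 6.71 RPKM in exposed libraries and 8.05, 8.17 and 8.21 RPKM in untreated libraries. Exposed libraries lay lower by 1.34 RPKM or more. The means were 6.34 ± 0.321 and 8.14 ± 0.0845 RPKM (exposed and untreated, SD, n = 3 each; 1.28-fold lower, log2 change -0.32, SE 0.0501, adjusted p = 0.000486, limma). Over all tested genes the median change was -0.13 (log2), and relative to that the fall of Fosl2 was -0.19. Among tested genes 28.4% fell by more. With upper-quartile scaling its change shrank to -0.16 and still passed (adjusted p = 0.0234).

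Fosl1, the gene of the related protein FRA1 and no member of the 10, was scarce and did not separate the groups, with 0.587, 0.283 and 0.696 RPKM in exposed libraries and 0.394, 0.564 and 0.482 RPKM in untreated libraries.

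**Figure D2:**
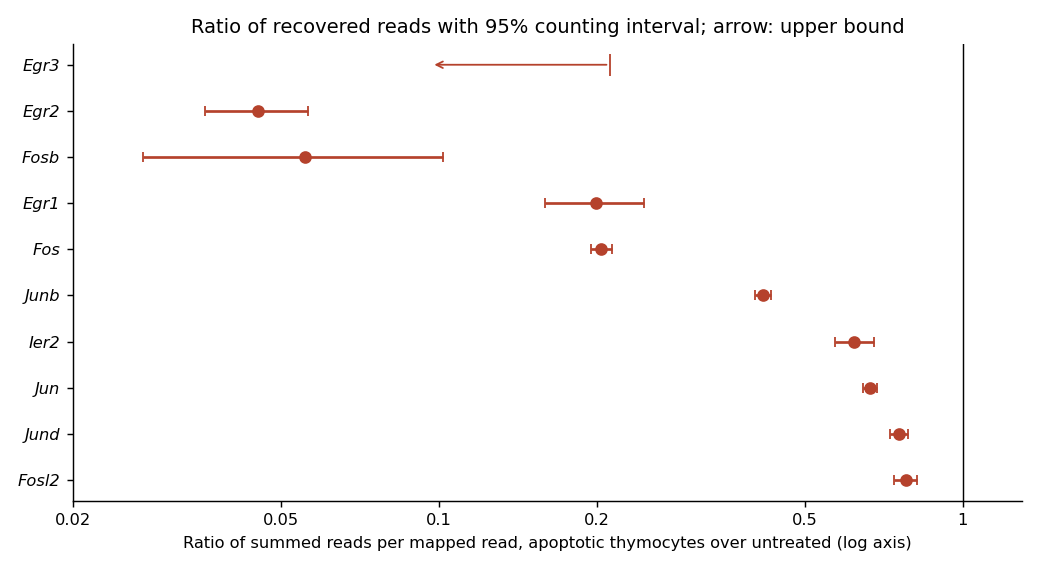
Ratio of summed reads per mapped read, exposed (apoptotic thymocytes) over untreated, on a log axis, for 9 factors with 95% counting intervals. The tick and arrow give an upper bound for Egr3, which had 0 exposed reads, from a floor of 3 reads in each exposed library. The 95% counting interval of its summed reads, not drawn, ends at 0.0910. Egr2 and Fosb lie near 0.05, Egr1 and Fos near 0.2, Junb at 0.415 and the other 4 between 0.621 and 0.778. For Jund and Fosl2 the reads behind the interval could be off by a common factor.

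The JUN genes, whose proteins can form AP-1 with FOS proteins or among themselves, were all above 20 RPKM in both groups. Junb, whose protein is a weaker activator than JUN at many sites, fell most of the 3 (chromosome 8, 84976909 to 84978748, minus strand). Its RPKM was 31.8, 32.8 and 34.9 in exposed libraries and 79.8, 80.6 and 79.1 in untreated libraries. No exposed library came within 44.2 RPKM of an untreated one. The means were 33.2 ± 1.55 RPKM in exposed and 79.9 ± 0.764 RPKM in untreated macrophages (SD, n = 3 each; 2.41-fold lower, log2 change -1.24, SE 0.0451, adjusted p = 2.43e-08, limma).

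Jun, the founding member of the family, had a smaller fall (chromosome 4, 95049034 to 95052222, minus strand). It stood at 30.8, 32.8 and 34.7 RPKM in exposed libraries and at 49.7, 49.0 and 49.0 RPKM in untreated libraries. The untreated libraries were nearly equal, and the highest exposed one was 14.3 RPKM below them. The fall was 1.502-fold (log2 change -0.57, SE 0.0499, adjusted p = 8.95e-06, limma). BC042782, on the other strand, overlaps Jun by 689 bp and had no more than 0.206 RPKM in any library.

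Jund, the JUN gene usually described as steadily expressed rather than induced, had 21.6, 24.1 and 26.5 RPKM in exposed libraries and 31.7, 32.9 and 30.5 RPKM in untreated libraries (chromosome 8, 70697739 to 70700616, plus strand). The groups came within 3.99 RPKM of each other, and the exposed libraries were the more spread. The means were 24.1 ± 2.45 and 31.7 ± 1.21 RPKM (exposed and untreated, SD, n = 3 each; 1.32-fold lower, log2 change -0.39, SE 0.0700, adjusted p = 0.00110, limma). Relative to the median tested gene the change was -0.26, and with upper-quartile scaling it was -0.22 (adjusted p = 0.0256). Gm11175, on the other strand, overlaps Jund by 543 bp and had 0.704 to 0.889 RPKM in exposed libraries and 0.667 to 1.77 RPKM in untreated libraries.

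Ier2 encodes a small nuclear protein that is induced early but belongs to neither family (chromosome 8, 84661331 to 84662852, minus strand). It had 7.40, 8.91 and 8.87 RPKM in exposed libraries and 13.7, 13.99 and 12.7 RPKM in untreated libraries. Exposed replicate 1 was the lowest, and the nearest libraries of the groups were 3.76 RPKM apart. The means were 8.39 ± 0.862 and 13.5 ± 0.699 RPKM (exposed and untreated, SD, n = 3 each; 1.605-fold lower, log2 change -0.63, SE 0.0726, adjusted p = 6.59e-05, limma).

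**Figure D3:**
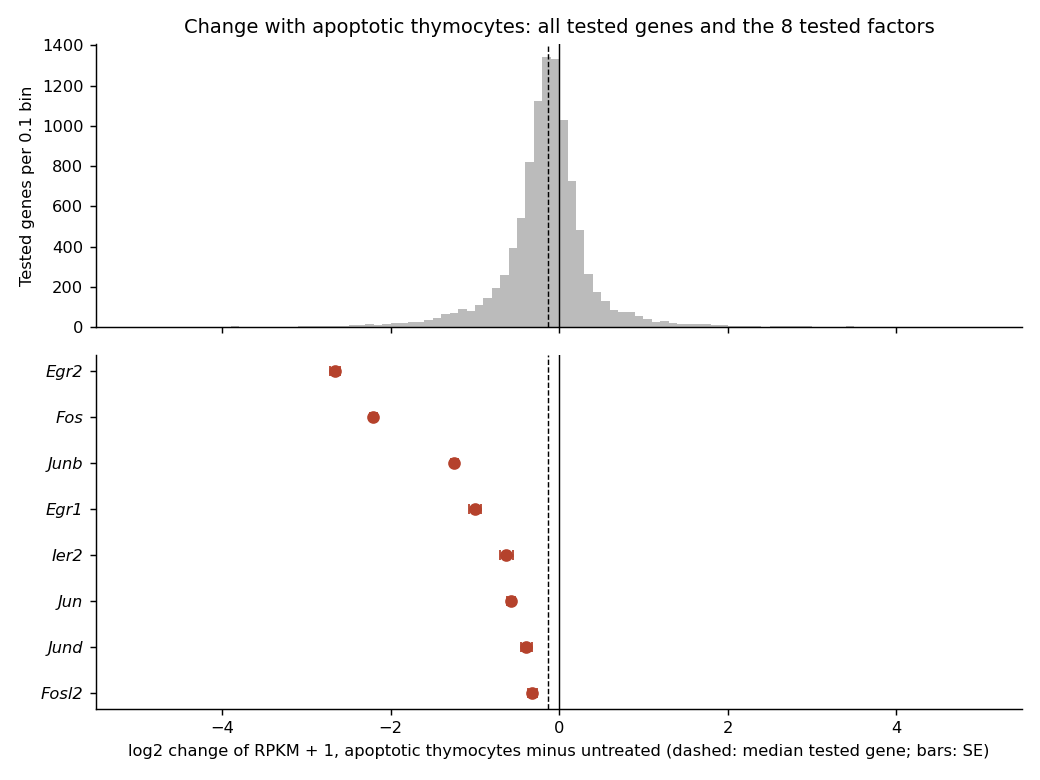
Top, number of tested genes per 0.1 bin of log2 change of RPKM + 1, exposed (apoptotic thymocytes) minus untreated; bottom, the same quantity for the 8 tested factors with SE, and a dashed line at the median tested gene (-0.13). Egr2, Fos and Junb lie in the lower tail, beyond -1.2, while Jund and Fosl2 lie within the bulk of genes.

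Because the falls were unequal, the make-up of each family's transcripts was different in exposed macrophages. RPKM of the FOS family (Fos, Fosb, Fosl1 and Fosl2) summed to 19.95 ± 0.889 in exposed and 73.1 ± 1.22 in untreated macrophages (SD, n = 3 each). Fos made up 65.4% ± 1.305 of that sum in exposed and 87.2% ± 0.184 in untreated libraries, and Fosl2 31.8% ± 0.198 in exposed and 11.1% ± 0.0827 in untreated libraries (SD, n = 3 each). Libraries of a group were almost alike in these shares, and the groups lay far apart. Fos was 2.06 ± 0.0531 times as high as Fosl2 in exposed and 7.84 ± 0.0749 times in untreated macrophages.

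The JUN family sum was 90.0 ± 5.96 RPKM in exposed and 161 ± 2.01 RPKM in untreated macrophages (SD, n = 3 each). Junb held 36.9% ± 0.795 of it in exposed and 49.7% ± 0.187 in untreated libraries. In exposed libraries Jun, with 36.4% ± 0.246, was therefore level with Junb. The sum of the FOS genes over that of the JUN genes was 0.222 ± 0.00834 in exposed and 0.455 ± 0.0123 in untreated macrophages, 2.05-fold lower.

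The EGR family sum was 0.661 ± 0.0128 RPKM in exposed and 9.56 ± 0.284 RPKM in untreated macrophages, 14.4-fold lower (SD, n = 3 each). Egr2 made up 51.3% ± 7.25 in exposed and 78.3% ± 2.27 in untreated libraries, and Egr1 48.7% ± 7.25 in exposed and 17.2% ± 1.69 in untreated libraries. The exposed shares rest on 83 reads of Egr2 and 105 of Egr1 over 3 libraries. None of the shares and ratios given here overlapped between the groups, and each gave p = 0.1 in an exact two-sided permutation test, the smallest p that 3 against 3 libraries allow.

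**Figure D4:**
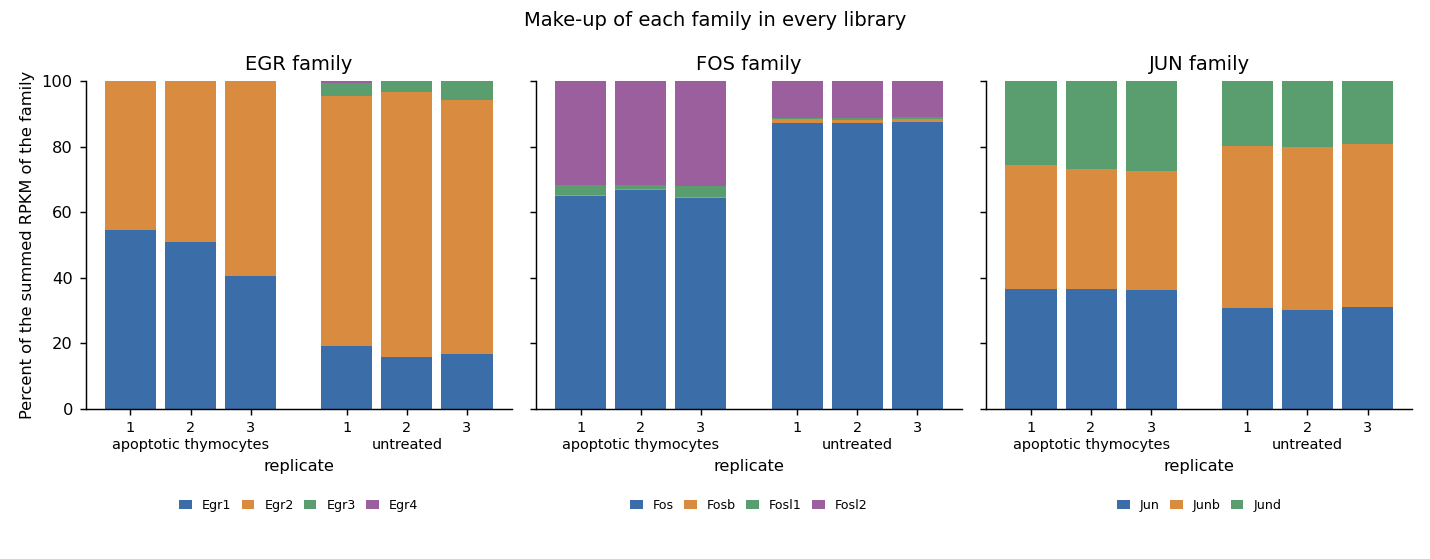
Percent of the summed RPKM of the EGR, FOS and JUN families held by each gene, in the 3 exposed (apoptotic thymocytes, left) and 3 untreated (right) libraries. Fosl2 takes about 32% of the FOS bars in exposed and 11% in untreated libraries, and Egr1 a larger part of the EGR bars in exposed libraries.

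Genes around these factors were read from 6 lists by role. The lists were chosen with earlier results of these data known, so the counts describe them and give no support. Besides the 10 they hold 84 measured genes. Of the 75 tested, 45 fell, 17 rose and 13 did not pass, with a median log2 change of -0.33 against -0.13 over all tested genes, of which 46.0% fell and 18.8% rose. Upstream, 9 of 16 tested kinase genes of the ERK, JNK and p38 pathways fell, 4 rose and 3 did not pass (median -0.20). Map2k1, which encodes MEK1, a kinase directly above ERK, fell to 21.7 ± 0.678 RPKM in exposed macrophages against 31.4 ± 1.43 RPKM in untreated macrophages. Rps6ka3, an ERK-activated kinase gene, fell to 11.01 ± 1.29 against 19.8 ± 0.484 RPKM (exposed and untreated). Map2k2, the gene of MEK2 at the same step as MEK1, rose from 21.2 ± 0.443 RPKM in untreated to 24.5 ± 1.46 RPKM in exposed macrophages. It is named here after its values were seen.

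Of 12 genes of SRF, CREB and their cofactors, 5 fell, 2 rose and 5 did not pass (median -0.03), which is no larger a share in either direction than the 46.0% lower and 18.8% higher over all tested genes. Srf itself fell to 6.86 ± 0.475 RPKM in exposed against 10.6 ± 0.0960 RPKM in untreated macrophages, and Creb1 to 5.15 ± 0.833 against 8.08 ± 0.235 RPKM. Elk3, an SRF partner that can act as a repressor, fell 2.49-fold (log2 change -1.17, adjusted p = 2.80e-07, limma).

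Other immediate early genes fell in 13 of 20 tested cases, rose in 5 and did not pass in 2 (median -0.51). Over all tested genes 46.0% fell and 18.8% rose. Nr4a1, an orphan nuclear receptor gene, was at 0.293 ± 0.0851 RPKM in exposed and 3.62 ± 0.204 RPKM in untreated macrophages, 12.4-fold lower. Myc, the growth regulator, fell 3.72-fold and the small MAF gene Maff 5.48-fold. Nr4a1 and Maff reached 1 RPKM in untreated libraries only.

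The other leucine zipper genes that can pair with JUN or FOS proteins or share their sites went both ways. Against 46.0% lower and 18.8% higher over all tested genes, 4 of 10 tested here were lower, 4 higher and 2 not passed (median -0.02). Atf3, a stress-induced factor, was the most abundant of them and fell 2.22-fold, to 80.2 ± 4.41 RPKM in exposed against 178 ± 6.76 RPKM in untreated macrophages. Jdp2, whose protein pairs with JUN and represses AP-1 sites, rose to 34.0, 36.4 and 37.8 RPKM in exposed libraries, against 4.90, 4.89 and 4.49 RPKM in untreated libraries. That was a 7.57-fold rise (log2 change 2.68, SE 0.0550, adjusted p = 8.29e-10, limma), the reverse of the FOS genes. Batf, a further JUN partner without an activation domain, chosen here after its values were seen, rose 2.18-fold to 9.08 ± 1.15 RPKM in exposed against 4.17 ± 0.127 RPKM in untreated macrophages.

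Among EGR corepressors and genes described as EGR targets, 9 of 10 fell and 1 did not pass (Csf1), with a median of -0.93. Over all tested genes 46.0% fell and 18.8% rose. Nab2, a corepressor that EGR proteins themselves induce, named here after its values were seen, was 3.18-fold lower at 5.96 ± 0.195 RPKM in exposed against 19.0 ± 0.756 RPKM in untreated macrophages. Vegfa, an angiogenic growth factor gene, was 6.38-fold lower, at 1.93 ± 0.0737 RPKM in exposed against 12.3 ± 0.137 RPKM in untreated macrophages. Pdgfb and Tnf also had log2 changes beyond -2, and Pdgfb reached 1 RPKM in untreated libraries only. Against the same 46.0% and 18.8%, 11 of 13 tested genes described as AP-1 targets fell and 2 rose, with a median of -1.33. Plau and Ccnd1 fell furthest there, and the genes that rose were Timp1 and Hmox1. Plaur, Cd44, Tnf and Vegfa stand in both target lists, and most of these genes answer to other factors as well.

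**Figure D5:**
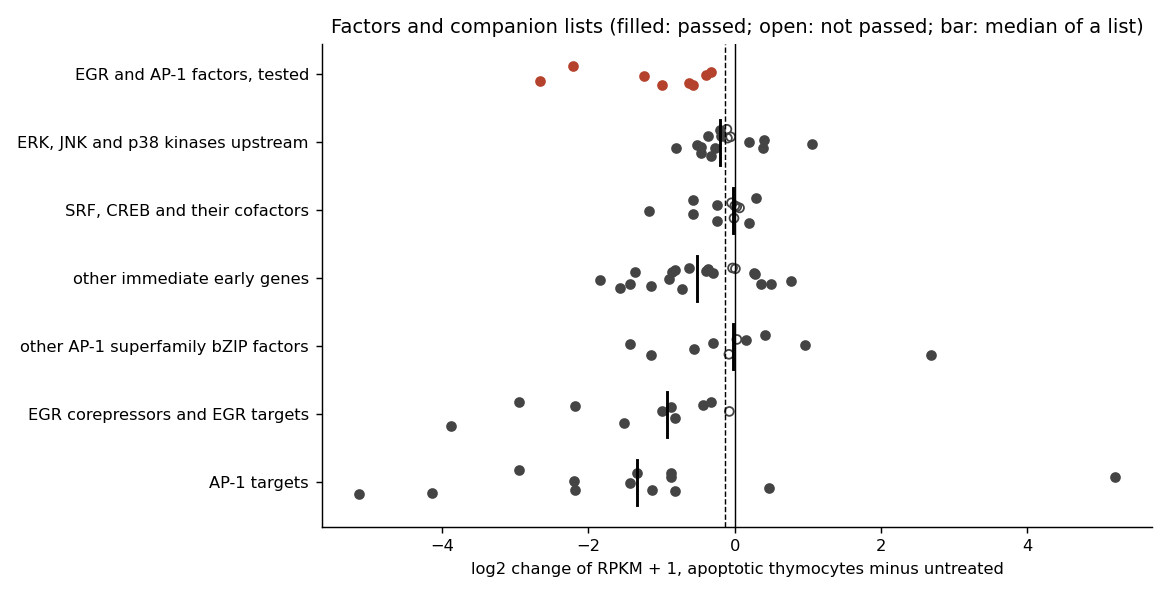
Log2 change of RPKM + 1, exposed (apoptotic thymocytes) minus untreated, of the 8 tested factors (top row) and of the tested genes of the 6 companion lists; filled points passed at adjusted p under 0.05, bars are list medians and the dashed line is the median tested gene. Both target lists lie mostly left of the dashed line, and Jdp2 stands alone on the right of its row at 2.68.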

How the data were processed

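The deposited values were RPKM, made by the authors, with 1 column per library, per the file headers, and the submitters' processing notes name the mouse build GRCm38 (mm10). For the aligner, counter, gene models and use of strand, nothing is given in the sources used here, so genes that overlap on opposite strands are uncertain. Each of the 6 columns matched 1 sample title, and 0 columns belonged to no sample.

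Members and lists were chosen with earlier results of these data known. The fit took log2(RPKM + 1) of the 10173 genes that reached 1 RPKM in 3 or more libraries, with limma 3.58.1 under R 4.3.3, group alone in the model and a trend on intensity. Benjamini-Hochberg adjustment ran over all of them. Log2 changes are exposed minus untreated, and folds are ratios of mean RPKM. The test was also run on simulated reads with few genes changed, evenly in both directions. That setting is unlike these data, so the run does not bear on the effect of scaling.

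Depth and gene lengths that make the RPKM whole reads were searched. All 18737 genes above 0 came out whole within 0.001 reads, 9371 of them at the GENCODE M21 exon length, 654 at the span of the gene and 8712 at a searched length of up to 30000 bp. Searched lengths were the shortest that made the reads whole, so such genes, Fosl2 among them, could hold a multiple of the reads given. For Jund reads could be off by a common factor. Read intervals are exact binomial at 95% and, like the floor of 3 reads, cover counting error only, since PCR copies cannot be recognised. No library was a repeat deposit of another, since pairs within a group had 1.66 to 16.2 as chi-square over genes, per gene, against about 1 for sampling noise.

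Promoters were those of RefSeq (GRCm38.p6), matched by symbol for 7 of the 10 factors. Python 3.11.15, pandas 2.3.3, numpy 2.4.6 and scipy 1.17.1 were used. All 10 factors are named, and of each companion list the 3 called genes with the largest change, except that 1 result is not reported here. Alternatives were other pseudocounts, filters, scalings, a replicate block, no intensity trend, limma voom on the recovered reads and leaving out each library.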

Additional observations from a re-analysis of the deposited data

How the results depend on the processing

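Each of the 8 tested factors stayed lower and past the threshold under all 15 alternatives, and each changed least with upper-quartile scaling. Under the 1 RPKM filter Egr1 and Egr2 entered through the untreated libraries alone, so their passing there adds no support to the difference. Over the 15, the largest adjusted p was 0.0234 for Fosl2 and 0.0256 for Jund (limma), both with that scaling, and 0.000997 or less for the other 6. With median-of-ratios scaling Fosl2 changed by -0.20 (adjusted p = 0.00743). Leaving out 1 library at a time gave -0.46 to -0.32 for Jund and -0.35 to -0.30 for Fosl2. For low genes the size depended on the scale, and with a pseudocount of 0.1 Egr1 changed by -2.05, while voom on the recovered reads gave Egr2 -4.45. Over all genes 1915 rose and 4679 fell, against 2908 and 3160 with median-of-ratios scaling and 3280 and 2814 with upper-quartile scaling. In the list of SRF, CREB and their cofactors 4 rose and 3 fell with upper-quartile scaling. Among single companion genes 18 results lost their call under an alternative, and 0 turned direction. Each motif count over the 7 promoters was the same when only bases before the start were searched. Same-numbered libraries did not deviate together (Pearson r of 0.197, -0.0310 and -0.162), and 2 of 6 libraries correlated best with their own number. With the replicate block 1904 genes rose and 4627 fell, and the 8 factors stayed lower. Depth limits Egr3, Fosb and Egr4, whose exposed libraries held 0 to 6 reads.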

Other observations

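The 5 immediate early genes that rose, outside the EGR and AP-1 families, were Dusp1, Ier3, Ctgf, Klf4 and Cyr61. Dusp1 encodes a phosphatase that switches off MAP kinases. It stood at 36.5 ± 1.86 RPKM in exposed and 21.0 ± 1.47 RPKM in untreated macrophages (SD, n = 3 each; log2 change 0.77, adjusted p = 4.35e-06, limma). Dusp2, a related phosphatase gene named after its values were seen, fell to 0.936 ± 0.227 RPKM in exposed against 2.59 ± 0.194 RPKM in untreated macrophages. Ier3, an early gene tied to cell survival, was at 9.93 ± 0.574 RPKM in exposed and 6.75 ± 0.954 RPKM in untreated macrophages. The remaining orphan nuclear receptor genes of the early response were under the testing limit, with Nr4a2 at 0.129 ± 0.00375 RPKM in exposed and 0.580 ± 0.128 RPKM in untreated macrophages and Nr4a3 at 0.0115 ± 0.00364 and 0.214 ± 0.0530 RPKM (exposed and untreated). Btg2 and Zfp36l1, which encode proteins that promote mRNA decay or restrain growth, did not pass, with log2 changes of -0.03 and 0.01. The related genes Btg1 and Zfp36 fell, with log2 changes of -0.39 and -0.72.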
